A study of Mus musculus with 6 samples.

Results

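Heat shock proteins and J-domain chaperones were examined in RNA-seq libraries from whole brains of C57BL/6 mice. The members were the gene symbols of the deposited table that begin with Hspa, Hspb, Hspd, Hspe, Hsph, Hsp90 or Dnaj, less 1 that is not reported here, which gave 73 of 23057 symbols: 28 with an Hsp symbol and 45 with a Dnaj symbol. The rule reads symbols only. There were 3 mice in each of 2 groups. The irradiated mice had received 10 Gy of X-rays to the head in a field 10.08 mm across, and the controls had been mock-irradiated. Brains were taken 30 days later, after perfusion with saline, and no mutant allele, transgene or drug is named for either group. The series title concerns senescence after irradiation in the surroundings of brain tumors, and the libraries here come from the irradiated brain itself. Each library is 1 mouse, so the spread between libraries includes that between mice and dissections.

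Molecular chaperones hold or refold proteins that have lost their shape. HSP70 proteins bind exposed hydrophobic stretches in a cycle driven by ATP, J-domain proteins (the Dnaj genes) deliver clients and trigger the ATP hydrolysis, HSP110 proteins and HSPBP1 exchange the nucleotide, and HSP90 completes the folding of kinases and receptors. The cytosol keeps constitutive forms such as HSPA8 and adds stress-induced forms such as HSPA1A and HSPA1B through heat shock factor 1, which binds repeats of the letters GAA and TTC in promoters. The endoplasmic reticulum (HSPA5, HSP90B1) and the mitochondria (HSPA9, and HSPD1 with HSPE1) have chaperones of their own, with separate stress responses. Neurons are known for a high heat shock threshold and for J-domain proteins that work at synapses.

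Levels are given in FPKM, which divides the fragments of a gene by its length and by the mapped total, so genes can be set beside each other. They summed to 472450, 482411 and 571078 in mock 1, 2 and 3 and to 625782, 510046 and 621850 in irradiated 1, 2 and 3; the stated sequencing depth was roughly 30 to 40 M reads. Markers of brain regions differed between the groups. A list of 15 cerebellar markers summed to between 1434 and 2096 FPKM in mock and to between 173 and 323 FPKM in irradiated libraries, and 14 of the 15 fell (limma, adjusted p under 0.05), with Gabra6 listed at 0 in irradiated 2. A list of 8 telencephalic markers summed to 63.1, 26.3 and 57.8 FPKM in mock 1, 2 and 3 and to 109, 129 and 214 FPKM in irradiated 1, 2 and 3. Regional makeup and irradiation cannot be told apart in these libraries, which touches every difference below, and in bulk RNA fewer cells of a type and less RNA per cell cannot be told apart either. The samples hold brain: 8 neuronal markers summed to between 3171 and 3792 FPKM in mock and to between 3085 and 3531 FPKM in irradiated libraries.

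Chaperones as a class were abundant in both groups, and few of them differed between the groups. The 73 members summed to 0.904%, 0.980% and 0.934% of all FPKM in mock 1, 2 and 3 and to 0.975%, 1.01% and 0.977% in irradiated 1, 2 and 3. Hspa8 alone made up 29.6% to 33.1% of the member total and ranked between 15 and 25 among all genes of a library. Of the 73 members, 66 averaged 0.5 FPKM or more across the 6 libraries and were tested. Of these, 1 rose and 0 fell (limma on log2(FPKM + 0.5), Benjamini-Hochberg adjusted p under 0.05 over all 14585 genes tested), while among all tested genes 7.72% passed, 3.48% upward and 4.24% downward. Without adjustment, p was under 0.05 for 10 (15.2%), 9 higher and 1 lower, where 25.6% of all tested genes had such a p, 11.7% higher and 13.9% lower. In 10 of the 66 every irradiated library lay above the mock range and in 1 every one lay below it, that is 15.2% and 1.52% (together 16.7%), where the shares over all tested genes were 13.7% and 17.7% (together 31.5%). The median log2 difference of the members was 0.08, and that of all tested genes was -0.02.

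**Figure D1:**
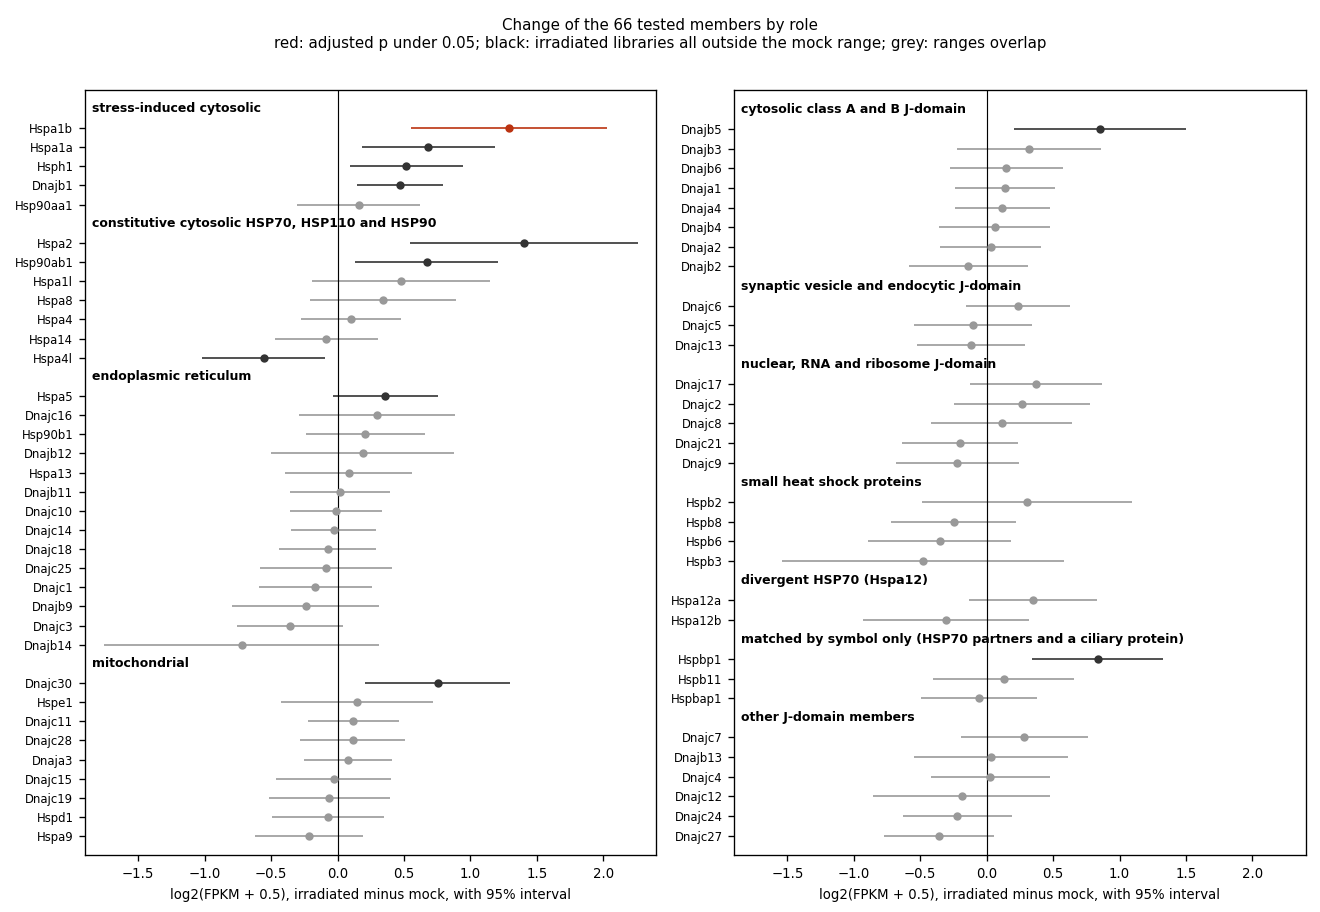
Change of each tested member, irradiated minus mock, on the log2(FPKM + 0.5) scale (x axis), with its 95% interval, grouped by role (rows). Hspa1b, in red, is the member with an adjusted p under 0.05. The stress-induced group, whose 5 points all lie above 0, has a median of 0.52, against 0.34 for the constitutive cytosolic group and -0.02 for the endoplasmic reticulum.

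Among the stress-induced cytosolic members Hspa1b rose, from a level far below that of the constitutive HSP70. Of the 5 in the list, 1 rose and 0 fell, 4 were higher and 0 lower with a p below 0.05 before adjustment, and in 4 every irradiated library lay above the mock range. Over all tested genes 11.7% were higher at such a p in limma and 13.7% lay above the mock range. The 4 include Hspa1a and Hspa1b, which share many reads and are not independent. The median log2 difference was 0.52, with a range from 0.16 to 1.29. Hspa1b and Hspa1a encode the inducible HSP70 and lie on chromosome 17 (mm10, 34956429 to 34959238 for Hspa1b and 34969359 to 34972156 for Hspa1a). Their promoter windows, from 250 bases before to 50 after the start of transcription, are shown because Hspa1b is the member that passed the test and because the pair is nearly the same sequence: 296 of 300 bases match. Capitals mark GAANNTTC, one way in which inverted GAA units of a heat shock element can be spaced (RefSeq, GRCm38.p6, 5′ to 3′ on the gene's own strand).
Hspa1a, chr17:34972107-34972406, minus strand: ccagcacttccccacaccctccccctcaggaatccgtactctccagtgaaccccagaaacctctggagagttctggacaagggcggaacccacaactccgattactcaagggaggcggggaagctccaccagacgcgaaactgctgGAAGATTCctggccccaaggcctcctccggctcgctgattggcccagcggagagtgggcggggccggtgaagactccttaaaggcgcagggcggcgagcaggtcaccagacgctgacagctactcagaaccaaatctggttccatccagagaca
Hspa1b, chr17:34959189-34959488, minus strand: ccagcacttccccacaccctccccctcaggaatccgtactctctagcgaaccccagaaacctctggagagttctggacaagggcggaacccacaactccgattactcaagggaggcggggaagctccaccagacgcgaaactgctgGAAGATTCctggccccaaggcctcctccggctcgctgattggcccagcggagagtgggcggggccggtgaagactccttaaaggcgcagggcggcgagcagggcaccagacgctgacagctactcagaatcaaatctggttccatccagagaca
In each window the match begins 104 bases before the start.

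Hspa1b was at 1.36, 0.947 and 1.54 FPKM in mock mice 1 to 3 and, among irradiated mice 1 to 3, at 2.34, 3.45 and 6.65 FPKM. Every irradiated library was above every mock library, and irradiated 3 had the highest value. The mean went from 1.28 ± 0.31 to 4.15 ± 2.24 FPKM (SD, n = 3 each), a log2 difference of 1.29 (SE 0.32, 95% interval 0.55 to 2.03, limma adjusted p = 0.048). The call was lost without mock 1, 2 or 3 and without irradiated 2 or 3 (adjusted p from 0.078 to 0.16, log2 difference from 0.93 to 1.39), and with a pseudocount of 1 (0.05, at the threshold), no filter (0.089), the replicate block (0.053) or the TPM scale (0.069). Hspa1a was at 2.07, 1.87 and 2.72 FPKM in mock mice 1 to 3 and, among irradiated mice 1 to 3, at 2.90, 3.93 and 4.88 FPKM, so its groups did not overlap either. Its log2 difference of 0.68 (SE 0.22, 95% interval 0.18 to 1.18) did not pass (limma adjusted p = 0.095), except with quantile normalization (0.045), without irradiated 1 (0.04) or at a threshold of 0.1. Reads cannot be split with certainty between this pair: of the 2893 windows of 75 bases in the longest annotated Hspa1a transcript, 1524 (52.7%) also occur in Hspa1b, and the sources used here do not say how such reads were assigned.

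The partners of the inducible HSP70 had smaller differences that did not pass the test. Dnajb1, the J-domain protein that works with it in the cytosol and nucleus, was at 18.3, 17.1 and 19.6 FPKM in mock mice 1 to 3 and, among irradiated mice 1 to 3, at 26.3, 25.8 and 24.8 FPKM. The gap between the groups, from 19.6 to 24.8 FPKM, was wider than the spread within either. Its log2 difference was 0.47 (SE 0.14, 95% interval 0.15 to 0.80, limma adjusted p = 0.079, and 0.043 with the transcript length correction). Hsph1, the inducible HSP110 that recharges HSP70 with ATP, was at 73.4, 71.6 and 94.8 FPKM in mock mice 1 to 3 and, among irradiated mice 1 to 3, at 99.6, 113 and 132 FPKM. No irradiated library of Hsph1 was as low as any mock library, though mock 3 and irradiated 1 were close. The log2 difference was 0.52 (SE 0.19, adjusted p of 0.13 by limma, and 0.045 with the length correction). Hsp90aa1, the stress-responsive HSP90, overlapped between the groups, at 389.5, 441 and 499.7 FPKM in mock mice 1 to 3 and 577, 446 and 465 FPKM in irradiated mice 1 to 3 (log2 difference 0.16, 95% interval -0.31 to 0.62, and -0.15 with quantile normalization). The difference of Hspa1a, Hspa1b, Dnajb1 and Hsph1 kept its sign under all 18 alternatives tried. Because their groups do not overlap, most of these alternatives, such as leaving out libraries or changing the pseudocount, could not have turned it.

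**Figure D2:**
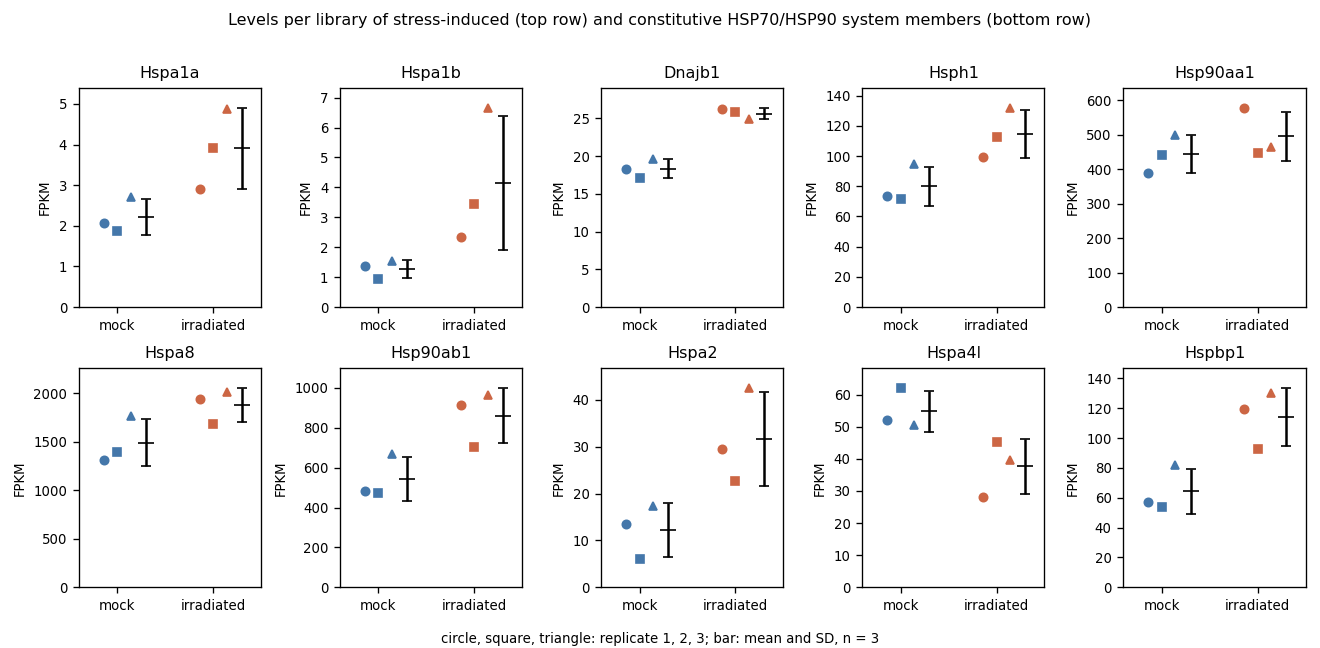
FPKM (y axis, from 0) in each library, with group means and SD. The top row holds the 5 stress-induced members. The bottom row holds the constitutive members Hspa8, Hsp90ab1, Hspa2 and Hspa4l and the HSP70 partner Hspbp1. The groups do not overlap for Hspa1a, Hspa1b, Dnajb1, Hsph1, Hsp90ab1, Hspa2, Hspa4l and Hspbp1, and they do for Hsp90aa1 and Hspa8.

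Heat shock element letters were searched in all promoter windows of RefSeq, of which 32851 were available, for GAANNTTC and for TTCNNGAA. Each of the 2 patterns reads the same on the other strand, and they overlap where 3 units follow one another. Of the windows of all genes 15.1% held at least 1 of them, and 17 of 76 windows of the 59 members with an entry did (22.4%). By gene, 15 of 59 members had a match, where 4587 of all 27025 genes did. Among the 15 were 3 of the 4 stress-induced members with an entry, Hsph1 and the nearly identical pair Hspa1a and Hspa1b. Of the constitutive cytosolic members with an entry 0 of 5 had a match, and of those of the endoplasmic reticulum 1 of 12. Hspa8 and Hsp90aa1 had no entry and were not searched. A run of 3 units, GAANNTTC and TTCNNGAA sharing the TTC or the GAA on either strand, occurred in 0.603% of all windows and in those of 4 members, Hsph1, Hspd1, Hspe1 and Dnajb6. A match is a description of the letters only, and no match says only that these letters are not in the window, as for Dnajb1. The window of Hsph1 is shown for its place among the higher members, and that of Hspe1, whose window on the opposite strand shares 285 bases with that of Hspd1, because it carries 3 overlapping matches while its level did not separate the groups. Capitals mark GAANNTTC and TTCNNGAA (RefSeq, GRCm38.p6).
Hsph1, chr5:149636266-149636565, minus strand: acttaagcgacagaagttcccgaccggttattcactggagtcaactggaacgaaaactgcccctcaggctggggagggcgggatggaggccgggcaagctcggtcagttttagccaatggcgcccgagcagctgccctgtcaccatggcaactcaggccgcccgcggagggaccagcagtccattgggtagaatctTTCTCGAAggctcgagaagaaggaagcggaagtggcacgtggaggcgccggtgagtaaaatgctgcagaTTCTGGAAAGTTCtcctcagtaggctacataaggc
Hspe1, chr1:55087898-55088197, plus strand: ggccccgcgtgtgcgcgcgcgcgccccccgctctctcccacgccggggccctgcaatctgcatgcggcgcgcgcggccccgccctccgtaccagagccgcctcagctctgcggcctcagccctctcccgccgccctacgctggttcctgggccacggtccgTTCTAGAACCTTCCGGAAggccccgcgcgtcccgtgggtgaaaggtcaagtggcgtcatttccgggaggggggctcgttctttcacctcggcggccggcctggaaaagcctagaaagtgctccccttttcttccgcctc

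Constitutive members of the cytosolic HSP70, HSP110 and HSP90 systems differed from one another in direction. Of 7 tested, 0 passed in limma, and 2 were higher and 1 lower with a p below 0.05 before adjustment. The shares of all tested genes at such a p were 11.7% higher and 13.9% lower. The median log2 difference was 0.34 (-0.04 with quantile normalization). Hspa8, the housekeeping HSP70 that also strips clathrin from vesicles, was at 1312, 1397 and 1766 FPKM in mock mice 1 to 3 and, among irradiated mice 1 to 3, at 1942, 1687 and 2013 FPKM. Irradiated 2 lay below mock 3, and the log2 difference of 0.34 (95% interval -0.21 to 0.89, limma adjusted p = 0.40) turned to -0.05 with quantile normalization. Hsp90ab1, the constitutive HSP90, was at 485, 473 and 668 FPKM in mock mice 1 to 3 and, among irradiated mice 1 to 3, at 913, 704 and 964 FPKM. Its groups were apart, with mock 3 and irradiated 2 nearest to each other. The log2 difference was 0.67 (SE 0.24, 95% interval 0.13 to 1.21, limma adjusted p = 0.12) and ranged from 0.35 to 0.83 over the alternatives. The FPKM total was also higher in irradiated 1 and 3 than in any mock library.

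Hspa2, an HSP70 best known from spermatogenesis that is also made in brain, had the widest log2 difference among the members with the pseudocount of 0.5, although with one of 0.1 that of Hspa1b was wider. Its gene lies on chromosome 12 (mm10, 76403812 to 76406938). It was at 13.4, 5.96 and 17.4 FPKM in mock mice 1 to 3 and, among irradiated mice 1 to 3, at 29.6, 22.6 and 42.5 FPKM. Its lowest value was in mock 2 and its highest in irradiated 3, the libraries with the lowest (26.3 FPKM) and the highest (214 FPKM) sum of telencephalic markers, and the part of region in this difference was not tested. The log2 difference of 1.41 (SE 0.38, 95% interval 0.55 to 2.26) just missed the threshold (limma adjusted p = 0.058), and passed with median centring (0.043), with the length correction (0.048), without mock 3 (0.045) and with the replicate block (0.02). Hspa4l, an HSP110, was the member whose irradiated libraries all lay below the mock range, at 52.0, 62.0 and 50.4 FPKM in mock mice 1 to 3 and 28.3, 45.1 and 39.7 FPKM in irradiated mice 1 to 3 (log2 difference -0.55, SE 0.20, limma adjusted p = 0.13). The difference was -0.36 without irradiated 1, in which long transcripts were low, and -0.37 with the transcript length correction; the Hspa4l transcript has 9479 bases. Its close relative Hspa4 did not separate the groups, with 56.6 to 61.9 FPKM under mock treatment, against 54.2 to 70.7 FPKM after irradiation. Hspa1l, the testis-type neighbour of Hspa1a, had a log2 difference of 0.48 (95% interval -0.19 to 1.14) and shares 7.09% of its 75-base windows with Hspa1a.

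Among genes named for binding HSP70 or heat shock proteins, Hspbp1 stood closest to a call. HSPBP1 releases nucleotide from HSP70 and limits its refolding activity. Hspbp1, on chromosome 7 (mm10, 4660515 to 4685188), was at 57.3, 53.6 and 81.7 FPKM in mock mice 1 to 3 and, among irradiated mice 1 to 3, at 119.6, 92.6 and 130.0 FPKM. All irradiated libraries were above all mock libraries. The log2 difference was 0.84 (SE 0.22, 95% interval 0.34 to 1.33, limma adjusted p = 0.052), and it passed in 7 of 18 alternatives, among them median centring (0.039), the TPM scale (0.047), the length correction (0.029) and the replicate block (0.046). Hspb11, a subunit of the ciliary transport machinery rather than a chaperone of the small heat shock family, had a log2 difference of 0.13 (95% interval -0.40 to 0.66), and Hspbap1 one of -0.06 (95% interval -0.49 to 0.38).

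Among chaperones of the endoplasmic reticulum no member passed the test. Of 14 tested, 0 passed in limma, 0 were higher or lower with a p below 0.05 before adjustment, and the median log2 difference was -0.02, equal to that of all tested genes. Hspa5, the HSP70 of this compartment and the sensor partner of the unfolded protein response, was at 123, 141 and 151 FPKM in mock mice 1 to 3 and, among irradiated mice 1 to 3, at 189.6, 157 and 186 FPKM. Its groups did not overlap, by a margin of 151 to 157 FPKM, and the log2 difference of 0.36 (95% interval -0.03 to 0.75) did not pass (limma adjusted p = 0.23). Hsp90b1, the HSP90 of the compartment, overlapped between the groups (129 to 164 FPKM under mock treatment, against 135 to 189.8 FPKM after irradiation, log2 difference 0.21, 95% interval -0.23 to 0.66). The J-domain partners of HSPA5 overlapped between the groups. Dnajb9, which is induced when the compartment is stressed, was at 18.1, 32.7 and 23.4 FPKM in mock mice 1 to 3 and, among irradiated mice 1 to 3, at 25.7, 18.5 and 17.5 FPKM (log2 difference -0.24, 95% interval -0.79 to 0.31). Dnajb11 had a log2 difference of 0.02 (95% interval -0.36 to 0.40), and Dnajc3, also known as an inhibitor of the kinase PERK, one of -0.36 (95% interval -0.76 to 0.04, limma adjusted p = 0.24).

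The widest negative value of the compartment, Dnajb14, an anchored J-domain protein of its membrane, rested on 1 library. It was at 11.8, 11.1 and 5.97 FPKM in mock mice 1 to 3 and, among irradiated mice 1 to 3, at 2.26, 9.004 and 7.42 FPKM, a log2 difference of -0.72 (95% interval -1.76 to 0.31) that became -0.17 without irradiated 1. Irradiated 1 was also the library in which long transcripts were low: the tertile of genes with the longest transcripts had a median of -0.27 on the log2 scale against the mean of the 6 libraries, and the shortest tertile one of 0.20. Dnajb14 has a transcript of 9477 bases, and with the length correction its log2 difference was -0.54. The promoter of Hspa5 is shown with the ER stress element in capitals, the letters CCAAT and, after 9 bases of any kind, CCACG (RefSeq, GRCm38.p6). On either strand this element occurs in 0.119% of all windows and in those of 3 members, Hspa5, Hsp90b1 and Dnajc3, all of this compartment, whose log2 differences were 0.36, 0.21 and -0.36.
Hspa5, chr2:34771840-34772139, plus strand: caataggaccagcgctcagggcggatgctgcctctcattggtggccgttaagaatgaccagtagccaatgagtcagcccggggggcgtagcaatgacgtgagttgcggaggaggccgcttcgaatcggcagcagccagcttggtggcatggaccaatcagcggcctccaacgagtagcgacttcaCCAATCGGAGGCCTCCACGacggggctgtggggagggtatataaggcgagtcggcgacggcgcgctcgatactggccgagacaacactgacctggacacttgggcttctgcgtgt

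Mitochondrial chaperones gave no call either. Of 9 tested, 0 passed in limma, and 1 was higher and 0 lower with a p below 0.05 before adjustment, where all tested genes gave 11.7% and 13.9%. The median log2 difference was 0.08 (-0.12 with quantile normalization and on the TPM scale). Hspa9, the HSP70 that pulls proteins into the matrix, was at 92.6, 130.5 and 109 FPKM in mock mice 1 to 3 and, among irradiated mice 1 to 3, at 87.6, 97.7 and 98.6 FPKM (log2 difference -0.21, 95% interval -0.62 to 0.19). Irradiated 1 lay below the mock range, and the other libraries of its group within it. The chaperonin Hspd1 was at 89.4, 134 and 106 FPKM in mock mice 1 to 3 and, among irradiated mice 1 to 3, at 105, 99.3 and 105 FPKM (log2 difference -0.07, 95% interval -0.50 to 0.35). Its lid Hspe1 was at 136, 199 and 183 FPKM in mock mice 1 to 3 and, among irradiated mice 1 to 3, at 263, 157 and 163 FPKM (log2 difference 0.15, 95% interval -0.43 to 0.72), so that only irradiated 1 was above the mock range. The Hspe1 difference was -0.09 without irradiated 1 and -0.02 with the transcript length correction. The member that separated the groups was Dnajc30, a small J-domain protein of the inner membrane that associates with ATP synthase. It was at 30.0, 24.1 and 39.5 FPKM in mock mice 1 to 3 and, among irradiated mice 1 to 3, at 55.1, 39.7 and 63.8 FPKM. Mock 3 and irradiated 2 were almost level. The log2 difference was 0.75 (SE 0.24, 95% interval 0.21 to 1.30, limma adjusted p = 0.091, and 0.047 with the replicate block), and the gene overlaps Bud23 on the opposite strand. Dnajc15 had a log2 difference of -0.03 and Dnajc11 one of 0.12.

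J-domain proteins of the synapse, the cytosol and the nucleus gave no call. Dnajc5, the cysteine-string protein that protects synaptic vesicles, was at 93.5, 88.9 and 78.5 FPKM in mock mice 1 to 3 and, among irradiated mice 1 to 3, at 64.1, 98.5 and 84.1 FPKM, and Dnajc6, the auxilin that brings HSPA8 to clathrin coats, was at 53.6, 47.0 and 46.6 FPKM under mock treatment, against 47.7, 63.7 and 63.3 FPKM after irradiation. Of 3 synaptic and endocytic members tested, 0 passed in limma and 0 were under an unadjusted p of 0.05. Both genes overlapped between the groups, with log2 differences of -0.10 (95% interval -0.54 to 0.34) and 0.23 (95% interval -0.16 to 0.63). Dnajc13, which acts in endosome sorting, had one of -0.12. Of 8 cytosolic class A and B members tested, 0 passed in limma, and the median was 0.13. With a p below 0.05 before adjustment 1 was higher, as were 11.7% of all tested genes. The higher member was Dnajb5, at 41.3, 20.7 and 42.6 FPKM in mock mice 1 to 3 and, among irradiated mice 1 to 3, at 65.4, 49.6 and 68.0 FPKM. Like Hspa2 it was lowest in mock 2, and its log2 difference of 0.85 (SE 0.28, adjusted p of 0.10 by limma) was 0.52 without that library. Dnaja1, a general partner of HSP70, had a log2 difference of 0.14 (95% interval -0.24 to 0.51). Of 5 nuclear, RNA and ribosome members, 0 passed in limma and 0 were under an unadjusted p of 0.05, with the widest log2 difference, 0.37, in Dnajc17. Of 6 other J-domain members tested, 0 passed and 0 were under an unadjusted p of 0.05; Dnajc27, a small GTPase with a J domain, had a log2 difference of -0.36 (95% interval -0.77 to 0.06) and Dnajc7 one of 0.28 (95% interval -0.19 to 0.76).

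Small heat shock proteins and the divergent Hspa12 genes, which mark muscle, vessel and other cells as well as neurons, did not separate the groups. Of 4 small heat shock proteins tested, 0 passed in limma and 0 were under an unadjusted p of 0.05, with a median log2 difference of -0.30. Hspb8, the partner of BAG3 in selective autophagy, was at 17.6, 22.9 and 23.0 FPKM in mock mice 1 to 3 and, among irradiated mice 1 to 3, at 23.0, 15.6 and 15.2 FPKM (log2 difference -0.25, 95% interval -0.72 to 0.22). Hspb6 had a log2 difference of -0.35 (95% interval -0.89 to 0.19). Hspb3 varied within the groups, at 2.45, 1.002 and 2.88 FPKM in mock mice 1 to 3 and, among irradiated mice 1 to 3, at 3.08, 0.560 and 0.959 FPKM. It was called lower (log2 difference -1.34, limma adjusted p = 0.014) when mock 2 and irradiated 1, the low mock and the high irradiated value, were left out together. Hspa12a, which is abundant in neurons, was at 32.9, 30.4 and 30.8 FPKM under mock treatment, against 28.9, 45.0 and 49.3 FPKM after irradiation, and Hspa12b, an endothelial gene, was at 5.53, 3.95 and 6.12 FPKM under mock treatment, against 2.75, 6.04 and 3.91 FPKM after irradiation (log2 differences 0.35 and -0.31, limma adjusted p = 0.33 and 0.51). The 7 members under the filter were Dnajb7, Dnajb8, Dnajc22, Dnajc5b, Dnajc5g, Hspb7 and Hspb9. Of these only Hspb9, a testis gene, reached 0.5 FPKM in a library, with 0.992 FPKM in irradiated 3, and Dnajc5g was listed at 0 in all 6.

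Ratios between members of 1 library are not altered by a single scaling factor for the library, though quantile normalization can alter them, and they show how the forms of one family stood to each other. All 7 ratios were chosen after the values were seen. Hsp90ab1 over Hsp90aa1 was 1.24, 1.07 and 1.34 in mock 1, 2 and 3 and 1.58, 1.58 and 2.08 in irradiated 1, 2 and 3. The sum of Hspa1a and Hspa1b per 1000 of Hspa8 was 2.61, 2.02 and 2.41 under mock treatment, against 2.70, 4.38 and 5.73 after irradiation, so the inducible pair was at most 5.73 per 1000 of the constitutive gene. Hspa4l over Hspa4 was 0.917, 1.001 and 0.822 under mock treatment, against 0.522, 0.653 and 0.562 after irradiation, a mean of 0.914 ± 0.0893 against 0.579 ± 0.0671 (SD, n = 3). The transcripts of this pair differ in length, 9479 against 4618 bases, and the part of length in the ratio was not tested. Hspa2 per 1000 of Hspa8 went from 8.12 ± 3.34 to 16.6 ± 4.01, and Hspbp1 per 100 of Hspa8 from 4.28 ± 0.400 to 6.03 ± 0.495 (SD, n = 3). These 5 did not overlap between the groups, which gives an exact two-sided permutation p = 0.1, the smallest that 3 against 3 allows (0.14 after Benjamini-Hochberg adjustment over 7). Hspe1 over Hspd1 (exact permutation p = 0.5) and Hspa5 over Hsp90b1 (exact permutation p = 0.2) overlapped.

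**Figure D3:**
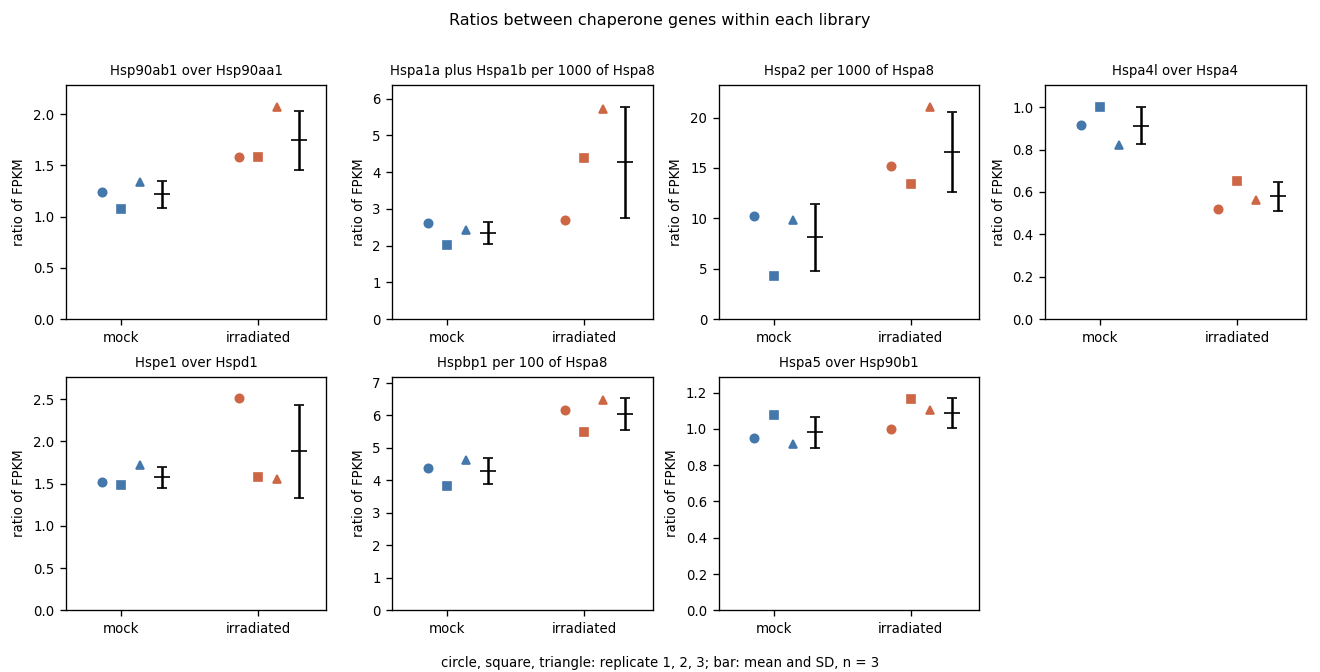
Ratios of FPKM between members within each library (y axis, from 0), with group means and SD. The groups are apart for 5 of the 7 ratios, Hspa4l over Hspa4 being lower and the other 4 higher in irradiated libraries, while Hspe1 over Hspd1 is raised in irradiated 1 only.

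Genes that act with these chaperones gave 1 call among 4 further lists. Of 35 heat shock factors and chaperone partners, 0 rose and 1 fell, where 3.48% of all tested genes rose and 4.24% fell. With a p below 0.05 before adjustment 3 were higher and 2 lower, against 11.7% and 13.9% of all tested genes. The median log2 difference was 0.07. The one that fell was Bag3, which links HSP70 to small heat shock proteins and is itself induced by heat shock factor 1. It was at 9.07, 9.76 and 12.5 FPKM in mock mice 1 to 3 and, among irradiated mice 1 to 3, at 6.88, 4.95 and 5.21 FPKM, a log2 difference of -0.83 (SE 0.19, 95% interval -1.26 to -0.39, limma adjusted p = 0.039). Its difference was negative, where those of the 5 stress-induced members were positive (0.16 for Hsp90aa1, whose groups overlapped), and the reason was not tested. The call was lost without mock 1, 2 or 3 and without irradiated 2 or 3 (adjusted p from 0.082 to 0.14), with no filter (0.064), with quantile normalization (0.054) and with the replicate block (0.083). Hsf1 itself was at 16.7, 14.9 and 22.3 FPKM under mock treatment, against 21.3, 20.8 and 23.1 FPKM after irradiation (log2 difference 0.29, 95% interval -0.13 to 0.70). Fkbp5, an HSP90 partner that glucocorticoids induce, had a log2 difference of 0.79 (SE 0.28, adjusted p of 0.12 by limma) that was 0.47 without mock 1, and Tomm34 and Cdc37l1 had 0.57 and -0.56.

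Of 27 genes of the unfolded protein response, 0 passed in limma, and 4 were higher and 1 lower with a p below 0.05 before adjustment. Such a p was found for 11.7% of all tested genes upward and 13.9% downward, so the higher count is near the background. The median was 0.16. Wfs1, also a marker of hippocampal neurons, had a log2 difference of 1.06 (limma adjusted p = 0.073), and Atf6b, a membrane-bound transcription factor, one of 0.72 (0.063). Pdia6, a disulfide isomerase, had one of 0.47 (0.10) and Hyou1, the HSP110 of the endoplasmic reticulum, one of 0.56 (0.12). Trib3, a target of the stress factors ATF4 and CHOP, had one of -0.56 (0.11). Of 8 subunits of the chaperonin TRiC, which folds actin and tubulin, 0 passed in limma and 0 were under an unadjusted p of 0.05, with 7 positive values and a median of 0.22, Cct7 being the widest at 0.38. Of 15 genes of mitochondrial protein quality control, 0 passed and 0 were under an unadjusted p of 0.05, with a median of 0.07.

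Markers of several regions and cell types also differed between the groups, while others overlapped. The 7 hindbrain markers summed to between 79.6 and 92.4 FPKM in mock and to between 1.2 and 3.8 FPKM in irradiated libraries, with Hoxb6 listed at 0 in each irradiated library. The 10 myelin markers summed to between 5473 and 6583 FPKM in mock and to between 2570.5 and 4514 FPKM in irradiated libraries. Sums of the 8 microglial markers overlapped, at 174 to 207 FPKM in mock and 203 to 354.5 FPKM in irradiated libraries, with irradiated 2 below mock 3. The 8 endothelial markers gave 134 to 168 and 124 to 141 FPKM, the 8 mural ones 79.6 to 90.2 and 85.1 to 87.1 FPKM, the 10 ciliary ones 28.6 to 47.8 and 30.8 to 37.1 FPKM, the 8 choroid plexus ones 947 to 2189.6 and 803.5 to 1046 FPKM, the 8 astrocytic ones 651 to 821 and 700 to 725 FPKM, and the 8 hippocampal ones 129 to 197 and 137 to 216 FPKM, in mock and irradiated libraries. Of the 8 hippocampal genes, 5 rose and 1 fell (limma). The one that fell was Calb1, which is also on the cerebellar list and made up most of the mock sum, at 99.1, 173 and 91.4 FPKM, against 37.5, 35.9 and 54.2 FPKM after irradiation, while C1ql2 rose from a mean of 3.33 to 35.0 FPKM. Of the 10 members above the mock range, 9 had their lowest value in mock 2, where telencephalic markers were lowest too. The same count was not made over all tested genes. Without that background share, 9 of 10 cannot be read as a link to region. In some of the 9 mock 1 was close, as for Hsp90ab1 (485 FPKM, against 473 in mock 2) and Hsph1 (73.4 against 71.6 FPKM). Without mock 2 Hspa1b was no longer called (limma adjusted p = 0.16), nor was it without mock 1, mock 3, irradiated 2 or irradiated 3. Calls over all genes also went from 508 higher and 618 lower to 192 and 291 without mock 2. The log2 differences of Hspa1b, Hspa2 and Dnajb5 without mock 2 were 1.15, 0.98 and 0.52. The part of region and cell type in the differences of these members was not tested.

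**Figure D4:**
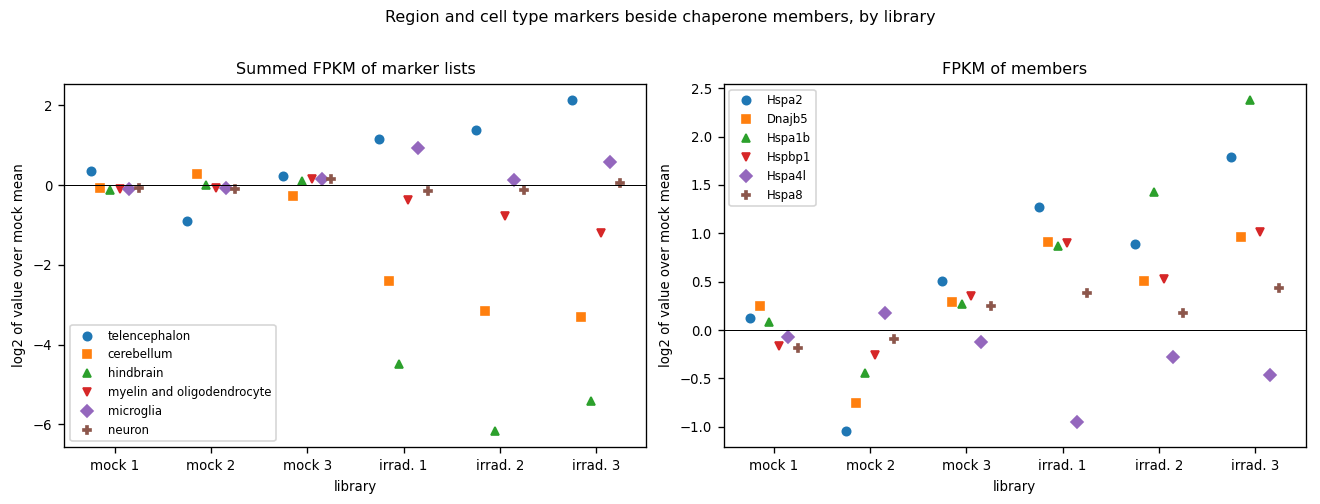
Log2 of each value over its mock mean (y axis) in the 6 libraries (x axis), for the summed FPKM of 6 marker lists (left) and the FPKM of 6 members (right). Telencephalic markers, Hspa2, Dnajb5 and Hspa1b are lowest in mock 2, and hindbrain markers lie furthest below 0 in the irradiated libraries.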

How the data were processed

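RNA-seq libraries of 3 mock-irradiated and 3 irradiated mouse brains were compared. Total RNA was depleted of ribosomal RNA, made into stranded libraries and read as 75-nucleotide single ends, per the labels' protocols. The deposited values are FPKM per gene symbol. The submitters' processing notes name TopHat, Cufflinks, Cuffdiff and the mm10 build; versions and settings were not given in the sources used here. Whole reads could not be recovered from the values (in no library did more than 1.76% of low genes share the commonest step), so depth beyond the labels' figure is unknown and no count test was run.

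The 14585 of 23057 symbols that averaged 0.5 FPKM or more were tested on log2(FPKM + 0.5) with limma 3.58.1 in R 4.3.3, two-sided, with a trended empirical Bayes variance and Benjamini-Hochberg adjustment over all 14585, at a threshold of 0.05. A log2 change on this scale understates that of low genes. In simulated data with 200 of 14585 genes changed, 51% of changes of log2 size 1 and 83% of size 2 were recovered. Within-library ratios were compared by exact permutation. Promoters were taken from RefSeq GRCm38.p6, which had windows for 59 of the members, and transcript lengths from GENCODE.

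The members and gene lists were chosen with earlier results of these data known. Named were called members, up to 3 of each group with the smallest p, a set list of well-known members, and of other lists the called genes and up to 3 with the smallest p. Hspa1l, Hsf1, Tomm34, Cdc37l1, Trib3 and members named for their group count, motif or filter were added after their values were seen. Alternatives were the pseudocount, the filter, the scaling, robust variances, the replicate block, each library left out, mock 2 and irradiated 1 left out together (a pair that earlier results set apart on region markers), a threshold of 0.1 and, added after the data were seen, the TPM scale and a transcript length correction. One symbol is not reported here.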

Additional observations from a re-analysis of the deposited data

How the results depend on the processing

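Over 18 alternatives, 28 of 42 named members kept the sign of their difference in every one, and no call changed direction. The filter, robust variances, the replicate block and the threshold can alter a p but not the difference, so they could not turn a sign. The count of members called higher was 1 as reported, 0 with a pseudocount of 1 or no filter, 3 with median centring or quantile normalization, 5 with the length correction, 6 at a threshold of 0.1, and 0 to 2 when 1 library was left out (0 without mock 1, mock 2, irradiated 2 or irradiated 3, and 2 without mock 3 or irradiated 1). Leaving out mock 2 and irradiated 1 together gave 1 member called lower, Hspb3, and a median of 0.06 for the endoplasmic reticulum. Over all genes, 508 rose and 618 fell as reported. Leaving out 1 library gave 148 to 671 higher and 254 to 684 lower, the fewest higher without irradiated 3 and the fewest lower without mock 1. A threshold of 0.1 gave 1002 and 1149, the TPM scale 324 higher (30.3% of calls, against 45.1% as reported), and the length correction 822 higher. Quantile normalization moved the median of constitutive members to -0.037 and of mitochondrial members to -0.12. The TPM scale moved the median of all genes to -0.21 and those of the stress-induced, constitutive, endoplasmic reticulum and mitochondrial members to 0.32, 0.14, -0.22 and -0.12, which relative to all genes is 0.53, 0.35, -0.01 and 0.09. The cause of these shifts was not tested. With 3 mice a group, differences of the size seen in most members are within the spread, and the depth of single genes is unknown.

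The labels do not say whether equal replicate numbers pair mock and irradiated samples. The deviations of same-numbered mock and irradiated libraries correlated at -0.33, 0.19 and 0.20, and not every library correlated best with its own number. Deviations from a mean of 3 libraries depend on one another, so these correlations cannot decide whether the samples are paired. With the replicate number as a block, 401 genes were higher and 394 lower, and 3 members were called higher, Dnajc30, Hspa2 and Hspbp1, while Hspa1b had a limma adjusted p = 0.053.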
